A study of Mus musculus with 9 samples.

Results

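The genes described here are 10 genes known as markers of fibro-adipogenic progenitors: *Pdgfra*, *Pdgfrb*, *Ly6a*, *Cd34*, *Dpp4*, *Osr1*, *Osr2*, *Tcf7l2*, *Pi16* and *Dcn*. They were taken by symbol from a table of 55471 Ensembl genes, in which each of the 10 was found and passed the filter on low counts. RNA came from the gastrocnemius, a calf muscle, of 5 *Shank3Δ11(−/−)* mice (KO1 to KO5) and 4 *Shank3(+/+)* mice (WT1 to WT4), all on C57BL/6 by their labels (the study's methods name C57BL/6JRj for the heterozygous matings) and taken at postnatal day 0 to 1, with 1 library per mouse. The *Shank3Δ11(−/−)* mice lack exon 11 of *Shank3*, which encodes a scaffold protein, on both alleles. The comparison of genotypes used KO1, KO3 and KO5 against the 4 *Shank3(+/+)* mice, and the log2 fold changes of all 9 mice stand beside it. The study left out KO2 and KO4 and gave insufficient reads as the reason. The sources used here do not name the litters of the mice.

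Fibro-adipogenic progenitors are mesenchymal cells that lie between muscle fibres and carry the receptor encoded by *Pdgfra*. They give rise to fibroblasts and adipocytes, secrete extracellular matrix and support muscle stem cells during growth and repair. Several of the 10 genes are shared with other cells of muscle: *Pdgfrb* is also a gene of pericytes and smooth muscle, *Cd34* and *Ly6a* are also found in endothelium, and *Cd34* in quiescent muscle stem cells. The RNA was that of whole muscle, so that fewer cells of a type and less RNA per cell cannot be told apart.

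Library totals ranged from 26444372 to 40471957 counts, with KO5 lowest and KO4 highest. KO2 had 28211941 counts, more than KO5. These deposited totals do not show the shortage of reads for which the study left out KO2 and KO4. The share of counts on mitochondrial genes was 7.88% in KO4 and 3.81% to 6.54% in the other mice. The fibre genes that define the labelled tissue were abundant, as 8 myofibre markers summed to between 59650 and 67330 CPM (the TMM-scaled unit of counts used throughout). *Xist* exceeded 100 CPM in WT3, WT4, KO3 and KO5 and was below that level in the other 5 mice, so both genotypes held both kinds. Among those 5 mice KO4 had 3.23 CPM and the others 0.136 to 0.219 CPM. The 4 Y-linked genes examined summed to 190 to 248 CPM in the 5 mice with low *Xist*. In WT3, WT4, KO3 and KO5 that sum was at most 0.423 CPM. *Shank3* itself averaged 34.2 ± 2.90 CPM in the 4 *Shank3(+/+)* mice and 31.6 ± 2.58 CPM in KO1, KO3 and KO5 (mean ± SD), but counts over the whole gene do not check the loss of exon 11.

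The start regions of 3 of the genes are shown because *Pdgfra* encodes the receptor that defines these cells and because *Dpp4* and *Pi16* are one of the 5 pairs with an r of at least 0.7 in size over the mice (adjusted p = 0.277 in an exact permutation test). Each runs 5′ to 3′ on the strand of the gene, from 250 bases before to 50 bases after the start site in RefSeq (GRCm38.p6), and capitals mark the E-box CANNTG, the letters that bHLH factors such as the Twist proteins recognise and that read the same on both strands. The regions lie at chr5:75152001-75152300 for *Pdgfra* (plus strand), chr2:62412182-62412481 for *Dpp4* (minus strand) and chr17:29318632-29318931 for *Pi16* (plus strand).
Pdgfra: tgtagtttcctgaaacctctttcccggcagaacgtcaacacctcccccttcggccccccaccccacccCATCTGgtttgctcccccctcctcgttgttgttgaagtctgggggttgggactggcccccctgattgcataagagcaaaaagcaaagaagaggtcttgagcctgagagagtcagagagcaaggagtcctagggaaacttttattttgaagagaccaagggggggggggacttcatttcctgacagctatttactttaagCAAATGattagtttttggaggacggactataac
Dpp4: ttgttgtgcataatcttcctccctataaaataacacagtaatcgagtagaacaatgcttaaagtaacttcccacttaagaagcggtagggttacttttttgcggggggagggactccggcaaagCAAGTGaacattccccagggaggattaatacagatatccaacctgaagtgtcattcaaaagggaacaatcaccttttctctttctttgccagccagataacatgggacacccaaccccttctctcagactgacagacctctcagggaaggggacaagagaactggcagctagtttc
Pi16: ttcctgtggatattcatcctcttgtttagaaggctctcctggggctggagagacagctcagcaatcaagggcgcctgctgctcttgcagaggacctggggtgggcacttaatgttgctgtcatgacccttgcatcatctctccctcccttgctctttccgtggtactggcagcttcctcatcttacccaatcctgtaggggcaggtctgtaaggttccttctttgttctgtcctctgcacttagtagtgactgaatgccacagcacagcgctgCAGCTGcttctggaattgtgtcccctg
The *Pdgfra* region held 2 E-boxes and those of *Dpp4* and *Pi16* held 1 each, against 72.3% of all 32851 RefSeq start regions of this length with at least 1. *Dpp4* alone of the 3 held the TATA box letters TATAAA (13.6% of all regions, either strand) and *Pi16* alone the letters CCAAT (37.4%). A match of letters is a description and not a binding site.

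By level per length of exon, *Dcn* was the highest of the 10 genes and *Dpp4* the lowest. *Dcn*, which encodes decorin, a small proteoglycan that binds collagen, averaged 102.2 ± 17.3 CPM per kb (SD, n = 9) and stood at percentile 97.5 of 21712 genes with a length. *Cd34*, the gene of a surface sialomucin, followed with 32.7 ± 2.64 CPM per kb, and its range over the mice did not overlap that of *Dcn*. *Ly6a* averaged 19.6 ± 7.15 CPM per kb. Next came *Pdgfra* with 12.7 ± 1.85, *Pdgfrb* with 12.6 ± 1.14 and *Osr1* with 12.3 ± 1.02 CPM per kb, which differed by less than the spread between mice. *Osr2* averaged 8.42 ± 1.33 and *Tcf7l2* 5.20 ± 0.925 CPM per kb. The lowest levels per length were those of *Pi16*, at 3.76 ± 0.893, and of *Dpp4*, at 2.70 ± 0.543 CPM per kb (percentile 44.9). From *Cd34* downward each gene's range over the mice overlapped that of the next gene in this order. The spread between mice was smallest for *Cd34*, with a coefficient of variation of 8.05% over the 9 mice, and largest for *Ly6a*, with 36.6%.

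**Figure D1:**
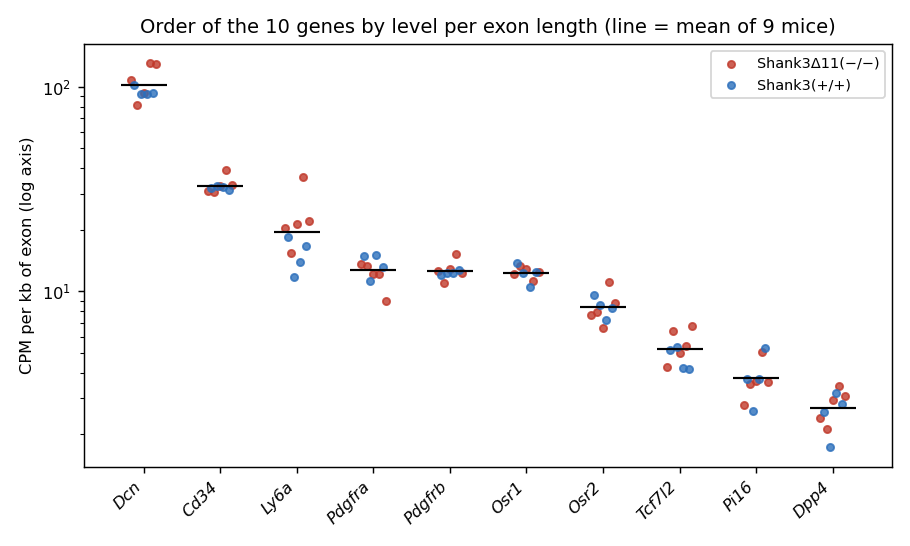
Level of the 10 genes in CPM per kb of exon on a log axis, 1 point per mouse (red *Shank3Δ11(−/−)*, blue *Shank3(+/+)*), with a line at the mean of 9 mice. *Dcn* lies apart at 102.2 CPM per kb, and the points of every other gene overlap those of its neighbour in the order.

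*Ly6a* gave the lowest p-value of the 10 genes in the comparison of genotypes, with a higher level in *Shank3Δ11(−/−)*. The study's criterion (p below 0.05 with FDR below 25%) was applied here with edgeR. By it 0 of the 10 genes passed, as did 0% of the 21809 genes tested. The study itself used limma and reported differentially expressed genes at these thresholds in the same 7 mice. The cause of this difference was not tested. At an unadjusted p below 0.05, edgeR gave 1 of the 10 genes, *Ly6a*, against 2.08% of all genes tested, or 1.16% in its direction. With all 9 mice this count was again 1, *Ly6a*, against 2.03% of all genes. DESeq2 gave 0 of the 10 genes past the criterion (0.0275% of all genes, 6 genes) and 1 at the unadjusted p (1.8% of all genes), and limma-voom likewise 0 (0%) and 1 (1.95%). Of the 10 genes 7 had a log2 fold change above 0 in the 7 mice and 3 below, with 47.8% of all genes above 0, and in the 9 mice again 7 lay above 0, with 50.5% of all genes. CPM did not overlap between genotypes for 1 of the 10 genes in the 7 mice, against 2.84% of all genes, and for 0 of the 10 in the 9 mice, against 0.686%. The median log2 fold change was 0.02 over the 10 genes and -0.01 over all genes tested, and in the 9 mice 0.05 and 0.0017. FDR was 1 for each of the 10 genes in both fits.

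**Figure D2:**
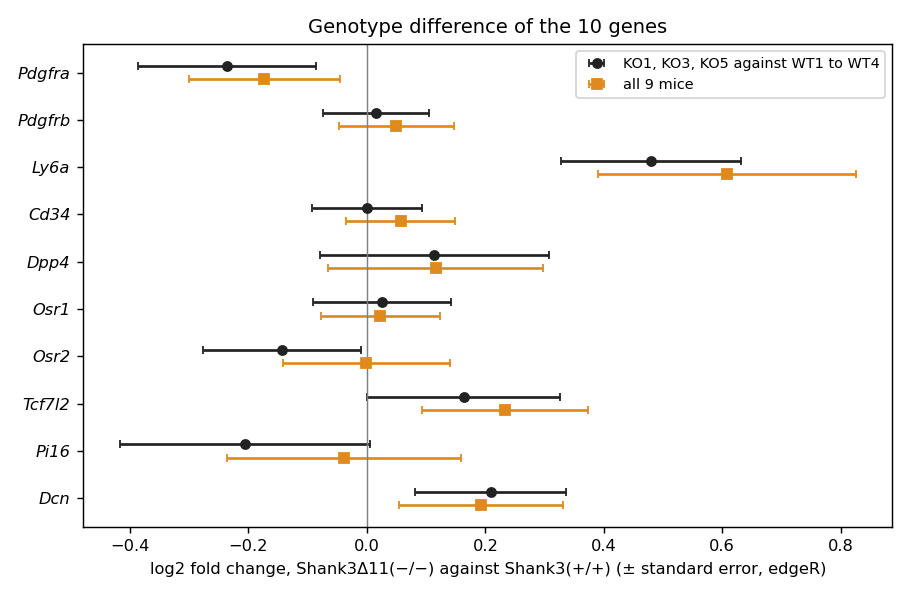
Log2 fold change of each gene, *Shank3Δ11(−/−)* against *Shank3(+/+)*, with its standard error from edgeR, for KO1, KO3 and KO5 against 4 mice (circles) and for all 9 mice (squares). *Ly6a* lies at 0.48 and 0.61, and the circles of the other 9 genes lie between -0.24 and 0.21.

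The receptors of platelet-derived growth factor differed in how much they varied. *Pdgfra* (ENSMUSG00000029231, chr5:75152292-75198215), the receptor that marks these progenitors, was measured at 136, 121 and 90.2 CPM in KO1, KO3 and KO5 and at 148, 113, 150 and 131 CPM in WT1 to WT4. KO2 had 133 and KO4 121 CPM. KO5 lay below every *Shank3(+/+)* mouse, and the other 4 *Shank3Δ11(−/−)* mice lay within their range. The difference was -0.24 on the log2 scale (standard error 0.15, p = 0.147 from edgeR, exact permutation test p = 0.286), and -0.17 (standard error 0.13, p = 0.199, exact p = 0.246) with all 9 mice. This value rests on single mice: in the 7 mice it was -0.09 with an unadjusted p of 0.546 from edgeR without KO5, and -0.36 with an unadjusted p of 0.0494 without KO1. In the 9 mice it was also -0.09 without KO5. Among the mice with *Xist* above 100 CPM, KO3 and KO5 lay below WT3 and WT4, and among the others the genotypes overlapped.

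*Pdgfrb* (ENSMUSG00000024620, chr18:61045150-61085061), the receptor of perivascular cells, had 68.7, 70.4 and 67.4 CPM in KO1, KO3 and KO5 and 65.9, 67.6, 67.4 and 69.9 CPM in WT1 to WT4. These 7 mice lay within a narrow band, while KO2 was the lowest of all with 60.1 and KO4 the highest with 83.7 CPM. The log2 fold change was 0.02 (standard error 0.09, p = 0.864 from edgeR, exact permutation test p = 0.371), and 2 standard errors either side of it reached from -0.16 to 0.20. With all 9 mice it was 0.05. Of the 4 genes of the ligands, *Pdgfa*, *Pdgfb*, *Pdgfc* and *Pdgfd*, 0 had a p below 0.05 in either fit. *Pdgfa*, the main ligand of the receptor encoded by *Pdgfra*, averaged 79.9 ± 10.3 CPM in *Shank3(+/+)* and 78.9 ± 12 CPM in KO1, KO3 and KO5. *Pdgfb*, the ligand made by endothelium that recruits pericytes, averaged 39.9 ± 3.89 and 41.1 ± 3.03 CPM.

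Surface proteins used to sort these cells were *Ly6a*, *Cd34* and *Dpp4*. *Ly6a* (ENSMUSG00000075602, chr15:74994877-74998031, minus strand) encodes a glycosylphosphatidylinositol-anchored protein, the stem cell antigen by which mouse mesenchymal progenitors are isolated. It was measured at 24.5, 25.7 and 26.7 CPM in KO1, KO3 and KO5 and at 22.2, 14.2, 16.7 and 20.1 CPM in WT1 to WT4. The 3 *Shank3Δ11(−/−)* mice lay above all 4 *Shank3(+/+)* mice, a pattern that 1.54% of the genes tested showed in this direction. KO4 had 43.7 CPM, the highest of all mice, and KO2 had 18.5 CPM and fell among the *Shank3(+/+)* mice. The log2 fold change was 0.48 (standard error 0.15), a 1.39-fold difference. EdgeR gave an unadjusted p of 0.00958 with FDR = 1, and an exact permutation test gave p = 0.0571, where 35 splits of the mice allow no p below 0.0286. With all 9 mice the log2 fold change was 0.61 (standard error 0.22, unadjusted edgeR p = 0.0162 with FDR = 1, and p = 0.0556 in an exact permutation test), and 4 of 5 *Shank3Δ11(−/−)* mice lay above every *Shank3(+/+)* mouse. Without KO4 it was 0.38 with an unadjusted p of 0.0319 from edgeR, and without WT2, the lowest mouse, 0.50 with an unadjusted p of 0.0512.

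Within the mice with *Xist* above 100 CPM, KO3 and KO5 lay above WT3 and WT4 in *Ly6a*, and among the others KO1 and KO4 lay above WT1 and WT2 while KO2 lay between them. *Ly6a* lies 14.5 Mb from *Shank3* on the same chromosome, and *Osr2* 54.2 Mb. Of 12 neighbouring genes of the Ly6 family, whose near-identical copies could share reads with *Ly6a*, 6 passed the filter on low counts, 5 with a log2 fold change above 0 in the 7 mice and 4 in the 9. *Ly6c1*, also a gene of capillary endothelium, averaged 19.1 ± 0.612 CPM in KO1, KO3 and KO5 and 15.1 ± 2.09 CPM in the 4 *Shank3(+/+)* mice (log2 fold change 0.33, unadjusted p = 0.0311 and FDR = 1 from edgeR, exact p = 0.0571, and 0.43, p = 0.0682, exact p = 0.19 in the 9 mice). KO4 was again highest with 32.3 CPM, and KO2 lowest with 12.5 CPM. *Ly6e*, the most abundant of these neighbours, had 79.5 ± 17.9 and 68.6 ± 10.6 CPM with overlapping mice. *Lynx1*, whose product modulates nicotinic receptors, was at 4.06 ± 0.395 and 13.0 ± 6.57 CPM (log2 fold change -1.69, unadjusted p = 0.00761 and FDR = 1 from edgeR, exact p = 0.114), with WT2 at 3.61 CPM among the *Shank3Δ11(−/−)* mice. In the 9 mice its log2 fold change was -1.54 (unadjusted p = 0.00224 from edgeR, exact p = 0.0635).

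*Cd34* (ENSMUSG00000016494, chr1:194938819-194961279) was nearly level over the 7 mice, with 224, 238 and 242 CPM in KO1, KO3 and KO5 and 233, 238, 235 and 228 CPM in WT1 to WT4. KO2 had 223 and KO4 287 CPM, the lowest and the highest value. The log2 fold change was 0.00039 (standard error 0.09, p = 0.997 from edgeR, exact permutation test p = 0.829), with 2 standard errors either side reaching from -0.18 to 0.18, and it was 0.06 with all 9 mice. Of the 4 related sialomucins, *Podxl*, *Podxl2*, *Emcn* and *Cd164*, 0 had a p below 0.05. *Cd164* had 315 ± 38.3 and 317 ± 26.1 CPM and *Podxl* 68.9 ± 11.4 and 68.6 ± 7.12 CPM.

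*Dpp4* (ENSMUSG00000035000, chr2:62330073-62412231, minus strand), a surface peptidase of the progenitors that lie in connective tissue sheaths, had 15.2, 18.6 and 19.4 CPM in KO1, KO3 and KO5 and 16.3, 10.9, 20.2 and 17.8 CPM in WT1 to WT4. The genotypes overlapped, with WT2 lowest of all mice and KO4 highest at 21.6 CPM. Its log2 fold change was 0.11 (standard error 0.19, p = 0.566 from edgeR, exact permutation test p = 0.657), 0.12 with all 9 mice, and -0.04 without WT2 in either set. Among the 6 tested relatives of *Dpp4*, 0 had a p below 0.05. *Dpp8*, a cytosolic relative, had 118 ± 16.7 and 116 ± 14.7 CPM and *Prep*, prolyl endopeptidase, 70.8 ± 1.57 and 71.0 ± 1.88 CPM.

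**Figure D3:**
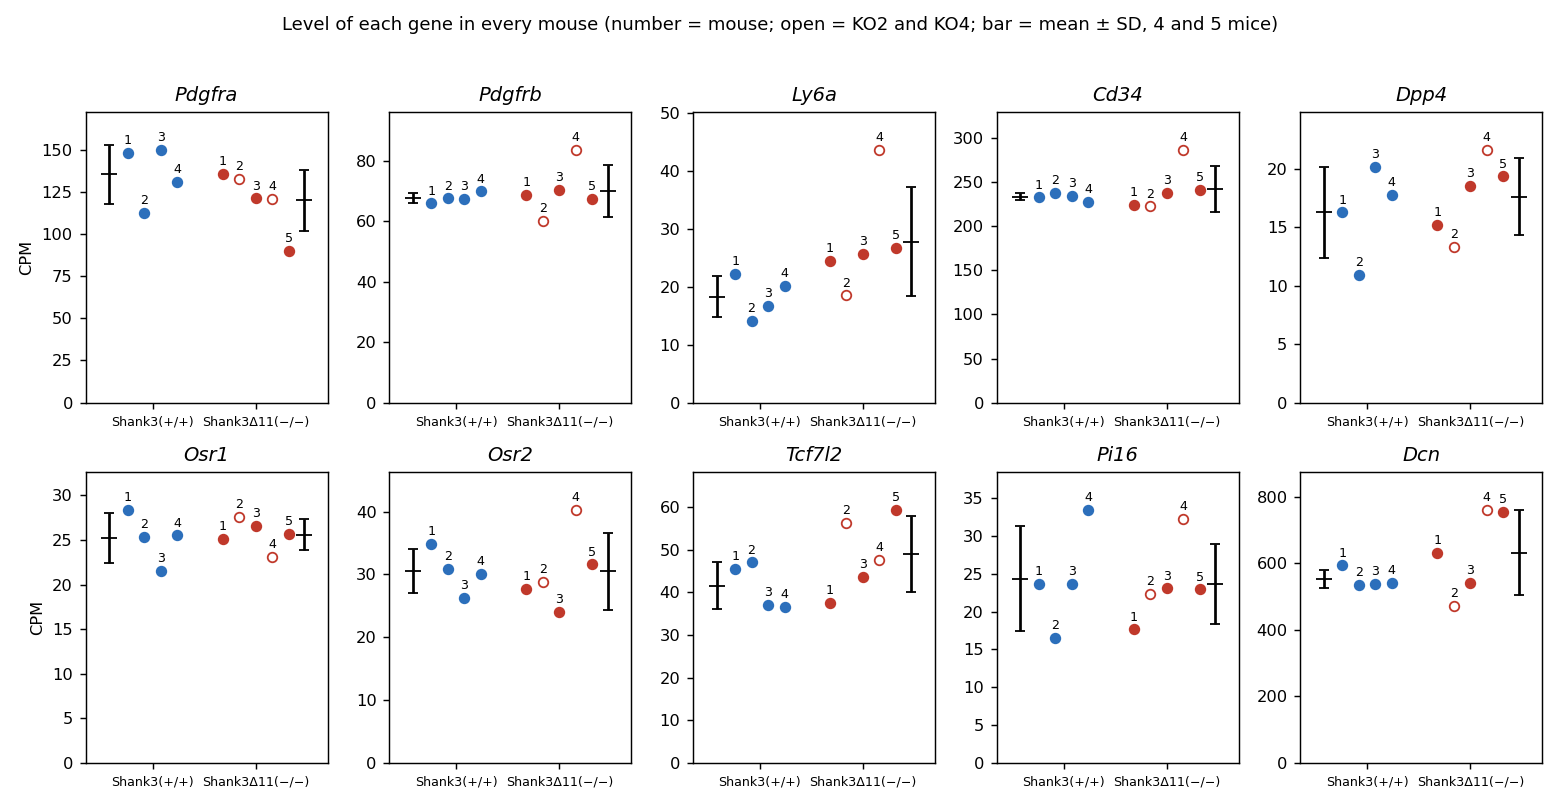
CPM of each gene in every mouse (number of the mouse beside its point, KO2 and KO4 open, 1 panel per gene, axis from 0), with mean and SD of 4 *Shank3(+/+)* and 5 *Shank3Δ11(−/−)* mice. In the *Ly6a* panel KO1, KO3, KO4 and KO5 lie above the highest *Shank3(+/+)* mouse at 22.2 CPM, and in the panels of the other 9 genes the genotypes overlap.

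The 3 transcription factors differed between genotypes by less than the spread between mice. *Osr1* (ENSMUSG00000048387, chr12:9570116-9581500), a zinc finger factor of embryonic limb connective tissue and its progenitors, had 25.1, 26.6 and 25.7 CPM in KO1, KO3 and KO5 and 28.4, 25.3, 21.6 and 25.5 CPM in WT1 to WT4. The *Shank3Δ11(−/−)* mice lay inside the range of *Shank3(+/+)*, as did KO2 with 27.6 and KO4 with 23.1 CPM. Its log2 fold change was 0.03 (standard error 0.12, p = 0.832 from edgeR, exact permutation test p = 0.743), and 0.02 with all 9 mice. *Osr2* (ENSMUSG00000022330, chr15:35296098-35303305), its paralog, had 27.7, 24.1 and 31.6 CPM in KO1, KO3 and KO5 and 34.8, 30.9, 26.2 and 30.1 CPM in WT1 to WT4. KO4 stood above all mice with 40.3 CPM, and the log2 fold change went from -0.14 (standard error 0.13, p = 0.308 from edgeR, exact permutation test p = 0.371) in 7 mice to -0.00072 in 9.

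*Tcf7l2* (ENSMUSG00000024985, chr19:55741820-55933654), a transcription factor of Wnt signalling that marks muscle connective tissue fibroblasts, had 37.5, 43.7 and 59.3 CPM in KO1, KO3 and KO5 and 45.6, 47, 37.1 and 36.7 CPM in WT1 to WT4. KO5 and KO2, with 56.2 CPM, and KO4, with 47.6 CPM, lay above every *Shank3(+/+)* mouse, and KO1 and KO3 within their range. The log2 fold change was 0.16 (standard error 0.16, p = 0.337 from edgeR, exact permutation test p = 0.571) and 0.23 (standard error 0.14, p = 0.121, exact p = 0.222) with all 9 mice, and it was -0.04 in the 7 mice without KO5. Of 15 other TCF/LEF and Wnt target genes tested, 6 lay above 0 and 9 below in the 7 mice (median log2 fold change -0.10), but 9 above and 6 below in the 9 mice (median 0.06), which was 6 above and 9 below without KO4 (median -0.04) and 12 above and 3 below without KO1, and 0 had a p below 0.05 in either fit. *Ctnnb1*, which encodes beta-catenin, the partner of TCF factors, had 412 ± 23.3 and 445 ± 17.0 CPM, with KO1, KO3 and KO5 below every *Shank3(+/+)* mouse, as for 1.3% of the genes tested (log2 fold change -0.12, p = 0.255 from edgeR, exact permutation test p = 0.0286, the smallest possible). KO2, with 438 CPM, lay within their range, and over all 9 mice the log2 fold change was -0.10 (p = 0.247 from edgeR, exact permutation test p = 0.0714). *Tcf7l1* had 56.7 ± 5.51 and 56.8 ± 6.07 CPM.

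Secreted products were *Pi16* and *Dcn*. *Pi16* (ENSMUSG00000024011, chr17:29317680-29330593), which encodes a peptidase inhibitor and marks fibroblast progenitors in many tissues, had 17.6, 23.1 and 22.9 CPM in KO1, KO3 and KO5 and 23.7, 16.5, 23.6 and 33.4 CPM in WT1 to WT4. The genotypes overlapped, with WT2 lowest, WT4 highest and KO4 just below it with 32.3 CPM. The difference was -0.21 on the log2 scale (standard error 0.21, p = 0.351 from edgeR, exact permutation test p = 0.543), and -0.04 with all 9 mice. It rested on WT4, without which it was -0.0065 in the 7 mice and 0.16 in the 9. *Dcn* (ENSMUSG00000019929, chr10:97479609-97518143) had 632, 541 and 755 CPM in KO1, KO3 and KO5 and 594, 536, 540 and 542 CPM in WT1 to WT4. KO1, KO4 (761 CPM) and KO5 lay above every *Shank3(+/+)* mouse, KO3 among them and KO2 below all with 473 CPM. Its log2 fold change was 0.21 (standard error 0.13, p = 0.13 from edgeR, exact permutation test p = 0.2) in 7 mice and 0.19 (standard error 0.14, p = 0.187, exact p = 0.286) in 9. This too rests on single mice, as in the 7 mice it was 0.07 with an unadjusted p of 0.56 from edgeR without KO5 and 0.32 with an unadjusted p of 0.0356 without KO3. In the 9 mice it was 0.11 without KO4 and 0.12 without KO5. Of 12 other small leucine-rich proteoglycans 6 lay above 0 and 6 below in the 7 mice, but 10 above and 2 below in the 9 mice (median log2 fold change 0.16), which turned to 2 above and 10 below without KO4 (median -0.05), and 0 had a p below 0.05 in either fit. *Bgn*, which encodes biglycan, had 564 ± 79.1 and 557 ± 56.6 CPM, and *Aspn*, which encodes asporin, 421 ± 116 and 376 ± 107 CPM.

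A list of 42 other genes of these progenitors held 4 genes at an unadjusted p below 0.05 in the 7 mice. Of the 40 genes tested, 23 lay above 0 and 17 below (median log2 fold change 0.04), and in 9 mice 26 lay above with a median of 0.08. In the 7 mice unadjusted edgeR p-values below 0.05 were found for 3 of the 40 genes higher in *Shank3Δ11(−/−)* and 1 lower (2.08% of all genes in either direction), in the 9 mice for 2 higher and 0 lower (2.03% of all genes), and none passed the criterion of FDR below 25% (0% of all genes). *Dpt*, which encodes the matrix protein dermatopontin, had 129 ± 39.8 and 74.9 ± 27.2 CPM (log2 fold change 0.77, p = 0.0319 from edgeR, exact p = 0.143, and 0.60, p = 0.0459, exact p = 0.103 in the 9 mice). *Thy1*, a surface glycoprotein of fibroblasts, had 14.8 ± 4.91 and 10.1 ± 1.97 CPM (log2 fold change 0.54, p = 0.0391 from edgeR, exact p = 0.114, and 0.52, p = 0.0472, exact p = 0.175 in the 9 mice). *Twist2*, a bHLH factor of mesenchyme, had 5.22 ± 3.30 and 2.63 ± 0.733 CPM (log2 fold change 0.97, p = 0.0271 from edgeR, exact p = 0.143, and 0.67, p = 0.0954, exact p = 0.27 in the 9 mice). *Vit*, which encodes the matrix protein vitrin, had 2.76 ± 0.0987 and 4.19 ± 1.22 CPM (log2 fold change -0.61, p = 0.0296 from edgeR, exact p = 0.114, and -0.33, p = 0.234, exact p = 0.27 in the 9 mice). KO5 was the highest mouse for *Dpt*, *Thy1* and *Twist2*, and without KO5 the count at an unadjusted p below 0.05 was 0 of 40 genes in either set of mice, though KO5 lay between KO1 and KO3 for *Vit*. In the 7 mice without KO1 it was 2, *Twist2* and *Thy1*. In the 9 mice it was also 0 without WT2, and 1 without KO1 or without KO4. *Hic1* and *Prrx1*, transcription factors of these progenitors, had 37.8 ± 7.91 and 39.5 ± 6.42 CPM and 130 ± 20.9 and 132 ± 24.4 CPM. The most abundant genes of the list were *Vim*, at 1646 ± 123 and 1602 ± 122 CPM, and *Fstl1*, at 1333 ± 74.9 and 1263 ± 146 CPM. *Tcf21* was near 0 in every mouse, with 0.0209 and 0.00814 CPM on average.

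Markers of other cells moved with some of these mice. KO5 had an adipocyte marker sum of 2072 CPM against 647 to 1014 CPM in the other *Shank3Δ11(−/−)* mice and 688 to 855 CPM in *Shank3(+/+)*. Of 7 adipocyte genes tested, 7 lay above 0 (47.8% of all genes) and 5 had an unadjusted p below 0.05 (2.08% of all genes). In the 7 mice 2 did without KO5 and 6 without KO1. In all 9 mice 2 did, 3 without KO4, and 0 without KO1, without KO5 or without WT2. KO5 also had a Schwann cell marker sum of 430 CPM against 107 to 211 CPM in the other mice. Endothelial markers lay above 0 for 10 of 10 genes in the 7 mice (median 0.11 on the log2 scale; 9 of 10 in the 9 mice) with 0 of 10 at an unadjusted p below 0.05, and summed to 943, 988 and 967 CPM in KO1, KO3 and KO5 and 851 to 939 CPM in *Shank3(+/+)*, with KO2 below all of these at 767 CPM and KO4 above them at 1106 CPM. The part of these cells in the values of *Ly6a*, *Dcn* and *Pdgfra* was not tested. Mural cell markers were split evenly, 5 above 0 and 5 below, and tenocyte markers lay below 0 for 7 of 7 genes in the 7 mice and for 5 of 7 in the 9 mice, with 0 at an unadjusted p below 0.05 in either.

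Over the 9 mice the 10 genes did not vary as a single group. The 45 pairs had a median Pearson r of log2 CPM of 0.235, with 27 pairs positive and 18 negative. An r of at least 0.7 in size was found for 5 pairs, which is 11.1%, against 7.97% of all pairs of the genes tested. In exact permutation tests over all orders of the mice 8 pairs had p below 0.05 and 0 after adjustment over the 45 pairs, where the lowest adjusted p was 0.277. *Pdgfra* and *Osr1* stood apart from the rest, each with a negative r in 8 of 9 pairs. For *Osr1* this rested on KO4, as 5 of its 9 pairs were negative without KO4 and 3 in the 7 mice, against 7 and 7 for *Pdgfra*.

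*Pdgfrb* and *Cd34* gave the highest r, 0.87 (exact permutation p = 0.0175, adjusted p = 0.277, Spearman's rho 0.52 with exact p = 0.162 and adjusted p = 0.607). Without KO2 and KO4, the mice farthest from the median of *Pdgfrb*, r was -0.20, so that the relation rests on those mice. *Ly6a* and *Dcn* had r 0.78 (exact p = 0.011, adjusted p = 0.277, rho 0.85 with exact p = 0.00607 and adjusted p = 0.273). Without KO4 and WT2 it was 0.70, and on deviations from the genotype means 0.75. *Pdgfrb* and *Ly6a* had r 0.75 (exact p = 0.0395, adjusted p = 0.277, rho 0.53 with exact p = 0.148 and adjusted p = 0.607), which fell to 0.25 without KO2 and KO4. *Ly6a* and *Cd34* had r 0.73 (exact p = 0.0471, adjusted p = 0.277, rho 0.53 with exact p = 0.148 and adjusted p = 0.607), 0.42 without KO4 and WT2, but 0.09 without KO4 alone. *Dpp4* and *Pi16*, whose start regions are printed above, had r 0.71 (exact p = 0.0335, adjusted p = 0.277, rho 0.65 with exact p = 0.0666 and adjusted p = 0.607), 0.58 without KO2 and WT2, and 0.73 on deviations from the genotype means. WT2 was lowest for both of these genes, and KO4 and WT4 were high for *Pi16*. The most negative r was that of *Pdgfra* with *Tcf7l2*, -0.64 (exact p = 0.0578, adjusted p = 0.289, rho -0.58 with exact p = 0.108 and adjusted p = 0.607). It was -0.29 without KO5 and WT2, -0.64 without KO4 alone and -0.82 without KO2 and KO4.

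KO4 carried much of this covariation. It was the highest of the 9 mice for 6 of the 10 genes, *Pdgfrb*, *Ly6a*, *Cd34*, *Dpp4*, *Osr2* and *Dcn*, and for 15% of all genes tested. With scaling by library size alone it was highest for 5 of them. The mean z-score of the 10 genes was 1.18 in KO4 and between -0.60 and 0.26 in the other mice. Without KO4 the median r of the 45 pairs was 0.04 and 0 pairs had an r of at least 0.7. KO4 also had a cartilage marker sum of 213 CPM against 36.5 to 64.8 CPM in the other *Shank3Δ11(−/−)* mice and 44.6 to 70.9 CPM in *Shank3(+/+)*, and the highest tenocyte sum, 1243 CPM. The part of these tissues in its values was not tested.

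**Figure D4:**
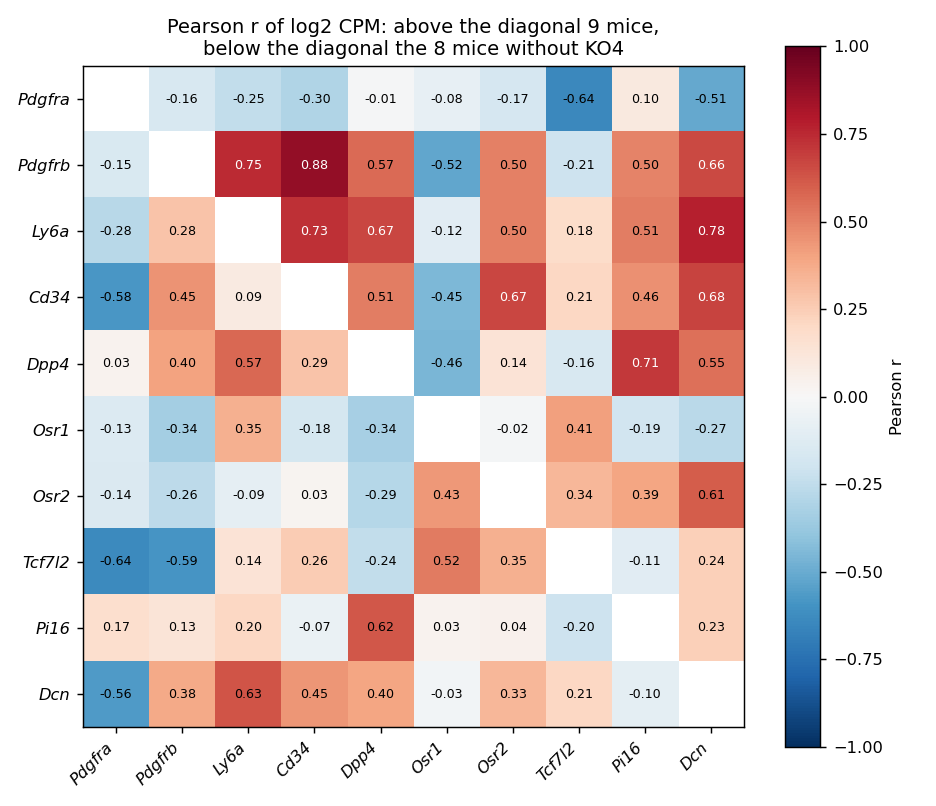
Pearson r of log2 CPM for the 45 pairs of genes, over 9 mice above the diagonal and over the 8 mice without KO4 below it, on a colour scale from -1 to 1. The block of positive values among *Pdgfrb*, *Ly6a*, *Cd34* and *Dcn* reaches 0.87 above the diagonal, and below it 0 pairs reach 0.7.

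Each gene was also set against the mean z-score of 8 marker lists, in 80 relations, of which 16 had an exact permutation p below 0.05 and 0 after adjustment, where the lowest adjusted p was 0.139. *Ly6a* varied with the other genes of these progenitors, with r 0.84 (exact p = 0.00448, adjusted p = 0.139, rho 0.80 with exact p = 0.0138 and adjusted p = 0.221). It was 0.81 without KO4 and WT1, 0.65 without KO4 alone and 0.88 on deviations from the genotype means. *Dcn* and the same list had r 0.77 (exact p = 0.0176, adjusted p = 0.176, rho 0.87 with exact p = 0.00451 and adjusted p = 0.221). It was 0.79 without KO4 and WT1 and 0.62 without KO4 alone. Both genes also varied with macrophage markers: *Ly6a* with r 0.72 (exact p = 0.0228, adjusted p = 0.184, rho 0.57 with exact p = 0.121 and adjusted p = 0.567), and 0.31 without KO4 and WT2, and *Dcn* with r 0.70 (exact p = 0.037, adjusted p = 0.2, rho 0.80 with exact p = 0.0138 and adjusted p = 0.221), and 0.57 without these mice. With adipocyte markers *Dcn* had r 0.63 (exact p = 0.0494, adjusted p = 0.224, rho 0.47 with exact p = 0.213 and adjusted p = 0.586). That r was 0.23 without KO1 and KO5, 0.35 without KO5 alone and 0.87 without KO4 alone. The differences between these relations were not tested. *Osr2* and the progenitor list had r 0.73 (exact p = 0.0254, adjusted p = 0.184, rho 0.42 with exact p = 0.27 and adjusted p = 0.654). This was -0.0087 without KO4 and WT1 and 0.45 without KO4 alone. *Pdgfra* showed no such relation, with r 0.04 (exact p = 0.924, adjusted p = 0.985, rho 0.10 with exact p = 0.81 and adjusted p = 0.939), and -0.22 without KO4 and WT1.

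Endothelial markers gave r 0.89 with *Pdgfrb* (exact p = 0.00744, adjusted p = 0.139, rho 0.70 with exact p = 0.0433 and adjusted p = 0.428) and 0.82 with *Cd34* (exact p = 0.00637, adjusted p = 0.139, rho 0.82 with exact p = 0.0108 and adjusted p = 0.221). They also gave r 0.78 with *Dcn* (exact p = 0.0106, adjusted p = 0.139, rho 0.62 with exact p = 0.0857 and adjusted p = 0.528) and 0.73 with *Ly6a* (exact p = 0.0327, adjusted p = 0.2, rho 0.72 with exact p = 0.0369 and adjusted p = 0.421). Without KO2 and KO4 these 4 values were 0.23, 0.39, 0.40 and 0.46 in the same order, so they rest on those mice. With mural cell markers *Pdgfrb* had r -0.09 (exact p = 0.817, adjusted p = 0.945, rho -0.22 with exact p = 0.581 and adjusted p = 0.93). This was -0.59 without KO2 and KO5 but 0.31 without KO4 alone. Satellite cell markers, the genes of muscle stem cells, gave r -0.84 with *Pdgfrb* (exact p = 0.0063, adjusted p = 0.139, rho -0.67 with exact p = 0.0589 and adjusted p = 0.428), which was -0.33 without KO2 and KO4 and -0.74 without KO4 alone. With *Dpp4* their r was -0.78 (exact p = 0.0122, adjusted p = 0.139, rho -0.83 with exact p = 0.00827 and adjusted p = 0.221). Without KO2 and KO4 this r was -0.71, and on deviations from the genotype means -0.83. *Osr1* had the opposite sign with this list, r 0.74 (exact p = 0.0232, adjusted p = 0.184, rho 0.67 with exact p = 0.0589 and adjusted p = 0.428), and 0.64 without KO2 and KO4. Tenocyte markers gave r 0.83 with *Pdgfrb* (exact p = 0.012, adjusted p = 0.139, rho 0.47 with exact p = 0.213 and adjusted p = 0.586), 0.77 with *Cd34* (exact p = 0.0359, adjusted p = 0.2, rho 0.38 with exact p = 0.312 and adjusted p = 0.676) and 0.71 with *Pi16* (exact p = 0.0374, adjusted p = 0.2, rho 0.77 with exact p = 0.0214 and adjusted p = 0.285). Without KO2 and KO4 these were -0.09, -0.23 and 0.69, so that only the relation with *Pi16* remained positive.

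**Figure D5:**
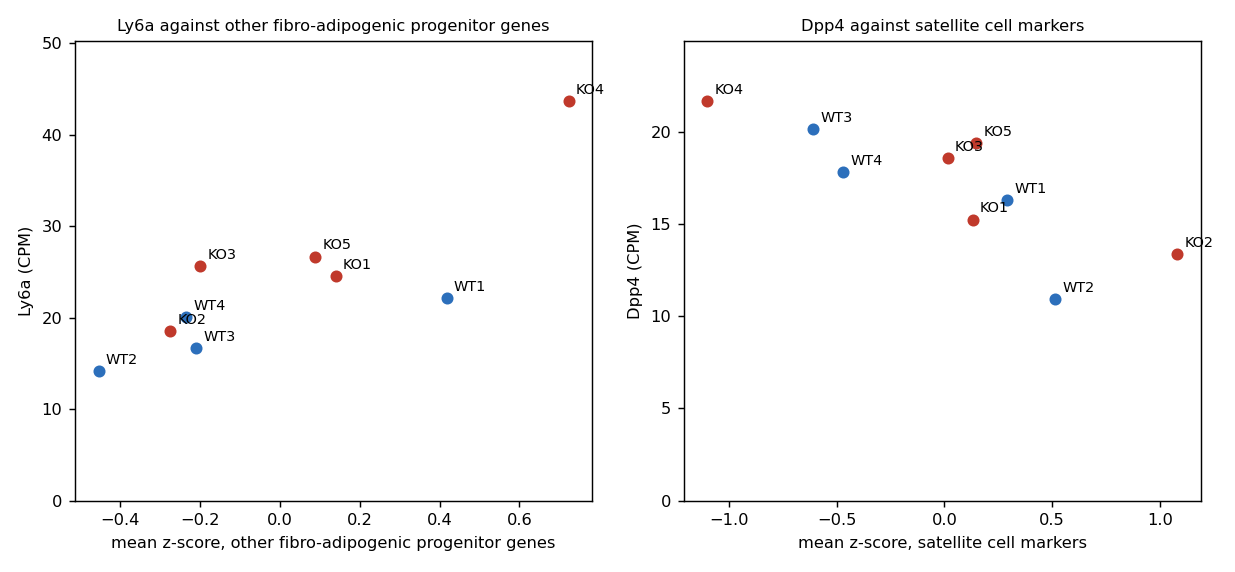
Left, *Ly6a* in CPM against the mean z-score of 40 other genes of fibro-adipogenic progenitors, and right, *Dpp4* in CPM against that of 7 satellite cell markers, 1 labelled point per mouse (red *Shank3Δ11(−/−)*, blue *Shank3(+/+)*). KO4 lies at the high end of *Ly6a* with 43.7 CPM and at the low end of the satellite cell score.

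Among 11390 other protein-coding genes with a mean of at least 5 CPM, the genes whose pattern over the 9 mice was most like the mean of the 10 were *Mical1* (r 0.946), *B3gnt9* (0.938), *Sdc2* (0.937), *Plcd1* (0.929), *Nudt6* (0.923), *Cpq* (0.92), *Nkd2* (0.915) and *Slc9a9* (0.909). The genes most like single members were *Sfrp1* (0.948) and *Nhlrc3* (0.945) for *Pdgfra*, *Ostc* (0.982) and *Nmi* (0.966) for *Pdgfrb*, and *Gusb* (0.947) and *Hsd3b7* (0.935) for *Ly6a*. For *Cd34* they were *Med12l* (0.955) and *Hmgn3* (0.948), for *Dpp4* *Tmem52* (0.958) and *Mfhas1* (0.94), for *Osr1* *Epb41l4a* and *Rcc1l* (both 0.9) and for *Osr2* *Nbl1* and *Fgd6* (both 0.932). *Tcf7l2* was closest to *Lsm12* (0.937) and *Coro2b* (0.921), *Pi16* to *Cpxm1* (0.953) and *Rnd2* (0.931), and *Dcn* to *Arpc5* (0.966) and *Gpx8* (0.965). These values of r are the highest of a search over many genes with 9 mice each, and are given as a description. The mean z-score of the 10 was 1.18 in KO4 and between -0.60 and 0.26 in the other mice. Likeness to that mean therefore depends strongly on KO4, and its r without KO4 was not computed.

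Counts of 4 of the genes could be affected in either direction by genes on the opposite strand, since the sources used here do not give the strand setting. Antisense genes overlap the exons of *Pdgfra* by 456 bases, of *Cd34* by 148, of *Dpp4* by 232 and of *Pi16* by 222 bases. A further gene on the opposite strand, *Gm42803*, overlaps the exons of *Pdgfra* by 166 bases.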

How the data were processed

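RNA of the gastrocnemius of 9 mice was sequenced, and reads were aligned by the authors to mm10 (GRCm38) with HISAT2 and counted per Ensembl gene with featureCounts of Subread, per the submitters' processing notes. The values analysed are these counts as deposited, without normalization. Strand setting, annotation release and handling of multi-mapped reads were not given in the sources used here. Symbols, positions and exon lengths came from GENCODE M21 for 55230 of 55471 IDs, and start regions from RefSeq (GRCm38.p6), which matched 5 of the 10 genes.

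Library totals ranged from 26444372 to 40471957 counts, and the least counted of the 10 genes, *Dpp4*, had 369 to 823 counts per mouse. KO1, KO3 and KO5 were compared with WT1 to WT4, and all 9 mice were an alternative. Genes were filtered with filterByExpr (minimum count 10, minimum total count 15) in edgeR 4.0.16 under R 4.3.3, which kept 21809 genes in the 7 mice and 21735 in all 9. Fold changes, standard errors and 2-sided p-values came from the robust quasi-likelihood test with TMM scaling, with Benjamini-Hochberg adjustment over all genes tested. The study used limma, and edgeR was chosen because the values are counts. Single genes also had a 2-sided exact permutation test of mean log2 CPM (prior count 2). Correlations over 9 mice had 2-sided exact permutation p-values, adjusted over 45 pairs or 80 relations. Alternatives were other filters and scalings, DESeq2 1.42.0, limma-voom (limma 3.58.1), the replicate number as a block, the *Xist* group as a covariate and the omission of single mice. The tests were tried on simulated data. Plots used matplotlib 3.10.9 (Python 3.11.15).

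The genes and the lists were chosen with earlier results of these data known. Besides the 10 genes, a list's genes were named by rule: up to 3 per direction with an unadjusted p below 0.05 and the 2 of highest mean CPM, and for likeness the 8 genes closest to the mean of the 10 and the 2 closest to each. *Hic1* and *Prrx1* were named as fixed markers of these cells, *Tcf21* was named after its values were seen, and cell type lists are given mainly as counts and sums.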

Additional observations from a re-analysis of the deposited data

Results flagged for a closer look

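In groups of 4 or 5 mice, 48 groups of values were screened for a mouse far from the others, a rule by which chance marks about 1 in 20 groups, and 4 were marked. *Dcn* in *Shank3(+/+)* was 594.2 CPM in WT1, against 535.6 to 541.9 CPM in the other 3 mice. Among *Shank3Δ11(−/−)* mice the adipocyte markers summed to 2072 CPM in KO5 against 646.6 to 1014 CPM, the cartilage markers to 212.7 CPM in KO4 against 36.46 to 64.77 CPM, and the erythroid markers to 3374 CPM in KO1 against 704.5 to 1287 CPM.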

How the results depend on the processing

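*Ly6a* kept its direction in all settings and an unadjusted p below 0.05 in each planned one, with a log2 fold change of 0.375 to 0.607, and 0 of the 10 genes passed FDR below 25% in any, where 0 to 15 of all genes did (6 in DESeq2, 9 with the replicate block and 15 without KO1). Chosen after seeing the data, leaving out each of the 9 mice in turn gave 0.379 to 0.724, with an unadjusted p of 0.0512 from edgeR without WT2. The replicate numbers were not taken as pairs: same-numbered mice correlated at 0.373, 0.0524, 0.357 and 0.101, mice of different numbers at up to 0.282, KO2, WT2 and WT4 were closer to another number than to their own, and KO5 has no partner. The fit with the number as a block gave 1 of the 10 genes at an unadjusted p below 0.05 (*Ly6a*, 0.375, with an unadjusted p of 0.0215), 844 genes against 453 over all genes, and the opposite sign for *Cd34* (-0.0207), *Dpp4* (-0.112) and *Tcf7l2* (-0.0263), with *Dcn* at 0.0415, and the cause was not tested.

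*Cd34*, near 0 throughout, also turned to -0.000858 with at least 10 counts in every mouse, -0.0161 with library size alone, -0.000344 in limma-voom and -0.00644 with the *Xist* group as covariate, and *Pdgfrb* to -0.000268 with library size alone. Without a filter 972 genes had an unadjusted p below 0.05. The median r of the pairs was 0.0406 in the 7 mice and 0.146 on deviations from the genotype means, and the cause was not tested. Deviations from the means of genotype and *Xist* group allow few orders of the mice, so their count of 0 says little.

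Leaving out mice of the 7, or of the 9, moved the count of the 10 genes at an unadjusted p below 0.05 between 1 and 2, or 0 and 2: *Pdgfra* was added without KO1, *Dcn* without KO3, and in the 9 mice *Tcf7l2* without KO1 (0.316) and *Dcn* without KO2 (0.283). In the 7 mice the log2 fold changes ranged from -0.364 to -0.088 (without KO5) for *Pdgfra*, 0.0733 (without KO5) to 0.319 for *Dcn*, -0.0248 to 0.0345 for *Cd34*, -0.0374 to 0.24 for *Dpp4*, -0.0342 to 0.0901 for *Osr1*, -0.249 to -0.049 for *Osr2*, -0.00074 to 0.0366 for *Pdgfrb*, -0.353 to -0.00654 for *Pi16* and -0.0448 to 0.302 for *Tcf7l2*. In the 9 mice they ranged from -0.252 to -0.0855 for *Pdgfra*, 0.114 to 0.283 for *Dcn*, -0.0142 to 0.0869 for *Cd34*, -0.0369 to 0.235 for *Dpp4*, -0.0446 to 0.0825 for *Osr1* (-0.00583 without KO2), -0.126 to 0.0693 for *Osr2* (0.0325 without KO1, 0.0203 without KO2, 0.0678 without WT1 and 0.00477 without WT2), -0.0269 to 0.101 for *Pdgfrb*, -0.187 to 0.155 for *Pi16* (0.0496 without KO1) and 0.156 to 0.316 for *Tcf7l2*. The median r ranged from 0.0441 without KO4 to 0.335 without KO2, relations with marker lists at an adjusted p below 0.05 from 0 to 1 (1 without KO1), and genes at an unadjusted p below 0.05 from 224 without KO5 to 968 without KO1.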
